A study of Mus musculus with 5 samples.

Results

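Expression of 7 genes of myeloid immune receptors and their signaling adaptors was followed in hematopoietic stem cells (HSCs) with and without Syncrip, which encodes an RNA-binding protein. They were the adaptors Tyrobp and Fcer1g, the activating receptors Clec5a and Fcgr3, the inhibitory receptors Lair1 and Clec12a, and the sialic acid-binding receptor Cd33, picked by symbol from the 24046 symbols of the deposited table. All 7 were above 0 in every library and were among the 13661 genes that passed the filter on low values. The members were chosen from their values in the same comparison, KO against WT, so those differences are given as a description with no test.

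Both groups were bulk RNA of donor-derived (CD45.2+) HSCs, sorted as Lin-, Sca1+ and cKit+ cells that were CD150+ and CD48-, from CD45.1 congenic recipients at 9 weeks after transplant. The 3 WT libraries (WT 1, WT 2 and WT 3) were Syncrip flox/flox, Mx1 Cre-, and the 2 KO libraries (KO 2 and KO 3) were Syncrip flox/flox, Mx1 Cre+. All animals, WT included, received polyinosinic:polycytidylic acid (pIpC), an interferon inducer that switches on Cre from the Mx1 promoter, 3 weeks before harvest. The promoter is not restricted to HSCs, the recipients kept their own non-donor cells, and neither the age of the animals nor any pooling was given in the labels. Nothing in the labels said that libraries of a group came from separate donors, so that SDs, SEs and p-values measure the spread between these samples.

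Depth was 12539599 to 22779536 recovered reads, lowest in both KO libraries, and each library differed from every other by more than sampling noise. Syncrip had 1440 to 1944 normalized reads in WT and 294 and 343 in KO, and it was the only gene of 13661 called (limma adjusted p = 0.0352). The 12 HSC markers were all detected, with a summed level of 13192 to 21394 normalized reads in WT, but transcripts of later myeloid cells took more of the reads. The 9 markers of mature neutrophils summed to 783371 to 983118 in WT. KO 2 also stood apart by adipocyte transcripts, which summed to 26777 there and to 158 to 404 in the other libraries, and KO 3 by the natural killer (NK) cell gene Prf1, at 141 against 4.16 to 18.5 elsewhere. Megakaryocyte and platelet markers summed to 151% (KO 2) and 356% (KO 3) of their WT mean. Values of KO 2 and KO 3 are therefore given separately for each member.

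Many receptors of myeloid cells carry no signaling motif of their own. They pair in the membrane with small adaptors, of which DAP12 (encoded by Tyrobp) and the Fc receptor gamma chain (encoded by Fcer1g) bear immunoreceptor tyrosine-based activation motifs that recruit the kinase SYK. Inhibitory receptors such as LAIR1, a receptor for collagens, carry inhibitory motifs in their own tails and recruit the phosphatases SHP-1 and SHP-2. These genes are best known from monocytes, macrophages and neutrophils, and LAIR1 and CD33 are also studied on leukemia cells.

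Promoter sequence is shown for the members whose window began outside annotated exons. It was searched for PU.1, encoded by Spi1, a main activator of myeloid receptor genes. Any part of PU.1 in the lower KO values of the members was not tested. The bases run 5′ to 3′ toward the RefSeq start site (GRCm38.p6, minus strand for all), from 250 bases before it. Capitals mark the letters GAGGAA, the core searched for PU.1, or their reverse complement TTCCTC. For Clec5a and Fcer1g the last 16 bases before the start site were left out, since the GENCODE M21 annotation places exon there. The windows were chr6:40585822-40586055 for Clec5a, chr7:4063205-4063454 for Lair1 and chr1:171234366-171234599 for Fcer1g.
Clec5a: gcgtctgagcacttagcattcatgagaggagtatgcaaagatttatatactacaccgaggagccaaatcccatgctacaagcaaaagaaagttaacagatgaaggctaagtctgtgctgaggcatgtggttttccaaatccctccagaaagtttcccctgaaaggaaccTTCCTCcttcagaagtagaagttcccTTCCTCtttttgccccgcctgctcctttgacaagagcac
Lair1: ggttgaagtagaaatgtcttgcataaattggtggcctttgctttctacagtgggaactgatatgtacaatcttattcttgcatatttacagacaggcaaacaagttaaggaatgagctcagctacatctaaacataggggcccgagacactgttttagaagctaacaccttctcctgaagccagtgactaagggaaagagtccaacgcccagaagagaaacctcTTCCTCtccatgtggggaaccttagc
Fcer1g: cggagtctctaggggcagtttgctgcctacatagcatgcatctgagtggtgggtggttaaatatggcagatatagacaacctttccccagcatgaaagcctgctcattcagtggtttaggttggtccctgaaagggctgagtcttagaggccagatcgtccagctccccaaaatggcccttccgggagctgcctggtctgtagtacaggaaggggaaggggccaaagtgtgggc
Clec5a held the core at 81 and 55 bases before the start site and Lair1 at 26 bases, whereas the Fcer1g window had none. In all, 6 members had a RefSeq window, and 5 of them (Clec5a, Lair1, Fcgr3, Clec12a and Cd33) held the core on either strand within 250 bases, against 25.9% of the 27025 genes with a window. The Clec12a window lay wholly in annotated exon and those of Fcgr3 and Cd33 began in it, with the matches of Clec12a and Cd33 inside exon. How many of the other genes' windows overlap exons was not counted. A C/EBP pattern, TTNCNNAA, was in 4 of 6 against 40.3% of genes, and a RUNX pattern, TGNGGT, in 4 of 6 against 43.3%. These are matches of letters and do not show binding. No window was given for Tyrobp.

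Of the adaptors, Tyrobp (ENSMUSG00000030579.10, chr7:30413760-30417585 in GRCm38, protein coding) had 3113, 3196 and 3906 normalized reads in WT 1, WT 2 and WT 3, and 2632 and 1388 in KO 2 and KO 3. Fcer1g (ENSMUSG00000058715.11, chr1:171229572-171234365) had 3397, 2949 and 3999 in WT, and 2881 and 1728 in KO. Both KO values lay below all WT values for each adaptor, but KO 2 was at 97.7% of the lowest WT value for Fcer1g and at 84.5% for Tyrobp. The KO mean was 2010 ± 879 (SD, n = 2) against 3405 ± 436 (SD, n = 3) for Tyrobp, a log2 fold change of -0.83 (SE 0.27). For Fcer1g it was 2305 ± 815 against 3448 ± 527, a log2 fold change of -0.62 (SE 0.25), the smallest of the 7.

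Clec5a, a C-type lectin receptor that signals through DAP12, differed most. It (ENSMUSG00000029915.14, chr6:40574894-40585821) had 2458, 1907 and 2675 normalized reads in WT and 746 and 181 in KO. The groups were far apart, with KO 2 at 39.1% and KO 3 at 9.48% of the lowest WT value. The KO mean of 464 ± 400 was 19.8% of the WT mean of 2346 ± 396, and the log2 fold change was -2.66 (SE 0.50). Of the genes tested, 0.403% had a lower fold change.

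Fcgr3 encodes a low-affinity activating Fc receptor for IgG that needs the Fcer1g chain. It (ENSMUSG00000059498.13, chr1:171051174-171064935) had 2397, 3104 and 3723 normalized reads in WT and 1959 and 806 in KO. Again both KO libraries were below every WT library, with a KO mean at 45.0% of WT and a log2 fold change of -1.27 (SE 0.36). Of the 50-base windows of its exons, 9.58% were also in Fcgr2b, the inhibitory Fc receptor next to it, so some reads of these 2 genes could be exchanged. Fcgr2b itself had 905, 1082 and 1201 in WT and 710 and 290 in KO. The order of the libraries was alike in both. For the other members at most 0.516% of windows were shared with another gene.

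**Figure D1:**
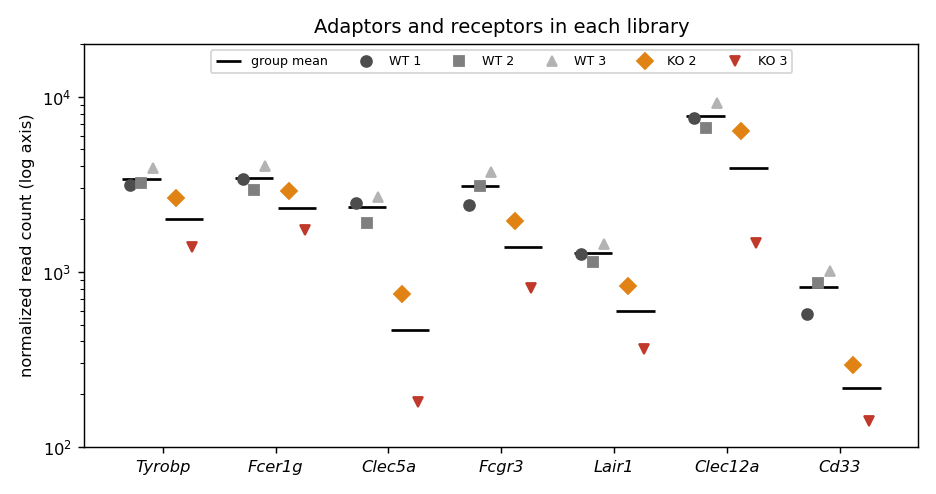
Normalized read count (log axis) of the 2 adaptors and 5 receptors in each library, with horizontal lines at the group means. In all 7 genes KO 2 lies below the lowest WT library and KO 3 below KO 2; for Clec5a the KO values are 746 and 181 against 1907 to 2675 in WT.

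Among the remaining receptors, the inhibitory Lair1 (ENSMUSG00000055541.17, chr7:4003402-4063204) had 1256, 1138 and 1443 normalized reads in WT and 833 and 364 in KO. Its WT libraries were within 1.27-fold of each other, and KO 2 was at 73.2% of the lowest of them. The KO mean was 599 ± 331 against 1279 ± 154, or 46.8% of WT, with a log2 fold change of -1.21 (SE 0.33). Clec12a, a C-type lectin receptor for uric acid crystals, had the most reads of the 7, partly through its exon length. It (ENSMUSG00000053063.11, chr6:129342691-129365303) had 7522, 6658 and 9152 normalized reads in WT and 6355 and 1463 in KO. KO 2 was thus only just outside the WT range, at 95.5% of the lowest WT value, and the log2 fold change of -1.34 (SE 0.51) rested mainly on KO 3, at -2.40 against the WT mean, with KO 2 at -0.28. Cd33 encodes a sialic acid-binding receptor that is inhibitory in humans, but the mouse protein lacks the canonical inhibitory motif. It (ENSMUSG00000004609.11, chr7:43524216-43544428), had 573, 868 and 1010 in WT and 293 and 140 in KO. Both KO libraries were well below WT although its WT libraries spread over 1.76-fold, and its log2 fold change of -1.97 (SE 0.38) was next to that of Clec5a in size.

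All 7 members had both KO values below all WT values. Over all genes tested this held for 23.2%, and 23.9% had both KO values above all WT values. The percent of genes called lower by limma was 0.00732%. Since the comparison itself chose the members, nothing is read from their count. The median log2 fold change of the 7 was -1.27, against 0.02 over all genes tested. The 2 KO libraries differed in size for every member: relative to WT, the median difference was -0.61 for KO 2 and -1.91 for KO 3, and the ratio of KO 2 to KO 3 ran from 1.67 for Fcer1g to 4.35 for Clec12a. In KO 2 alone, Clec5a (-1.64) and Cd33 (-1.44) differed from WT by more than 1 on the log2 scale, and the other members by 0.25 to 0.63. Together the 7 genes took 0.105% to 0.133% of reads in WT, 0.0834% in KO 2 and 0.0319% in KO 3. In bulk RNA, fewer cells of a type and less RNA of these genes per cell cannot be told apart.

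**Figure D2:**
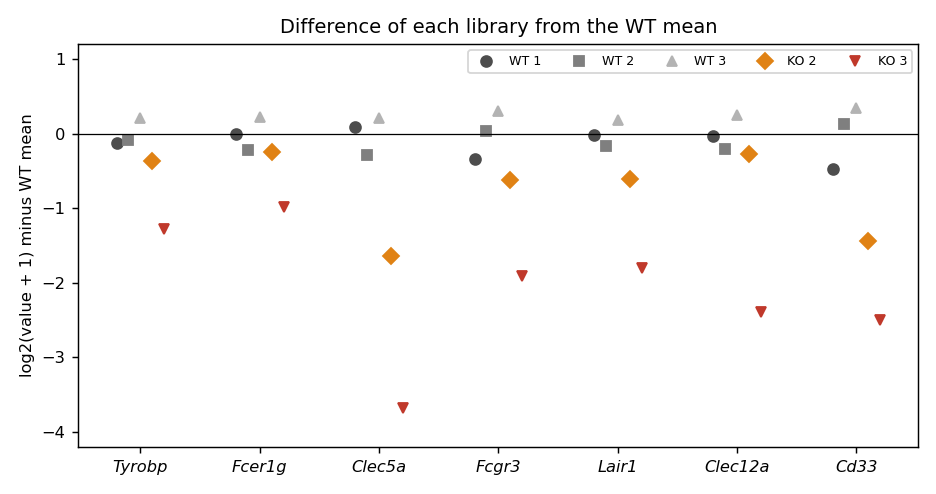
Difference of each library from the WT mean on the log2(value + 1) scale for each gene. KO 3 ranges from -0.98 (Fcer1g) to -3.68 (Clec5a) and KO 2 from -0.25 (Fcer1g) to -1.64 (Clec5a), while WT libraries stay between -0.47 and 0.35.

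The members also differed in base composition. Clec5a (38.9% GC in its longest transcript), Clec12a (41.1%), Cd33 (41.3%) and Lair1 (43.5%) were below the 49.9% median of tested genes, and Tyrobp (54.8%) and Fcer1g (51.8%) above it. When each library was corrected for a linear trend with GC content and transcript length, the log2 fold change was -1.87 for Clec5a, -0.77 for Lair1, -0.70 for Clec12a and -1.37 for Cd33. It was -1.12 for Tyrobp, -0.70 for Fcer1g and -1.19 for Fcgr3. Clec5a remained the lowest of the 7, but KO 2 was then 0.15 above the WT mean for Clec12a, and 6 of 7 had both KO values below all WT values. As a ratio, Lair1 and Clec12a thereby moved most, by over 1.5 times. On the log2 scale itself Clec5a moved most, from -2.66 to -1.87, and Cd33 moved from -1.97 to -1.37.

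Levels of different genes were compared as normalized reads per kb of annotated exon. In WT the order was Tyrobp (mean 5105 ± 654 per kb), Fcer1g (3945 ± 603), Fcgr3 (1771 ± 382), Clec12a (1407 ± 229), Clec5a (611 ± 103), Lair1 (171 ± 20.6) and Cd33 (105 ± 28.7). The adaptor genes were thus above every receptor gene. The ranges of Fcgr3 and Clec12a overlapped in WT: Fcgr3 was above Clec12a in each WT library, with 1381 against 1361, 1788 against 1204 and 2144 against 1656, but below it in KO 2, with 1129 against 1150. In KO 3 the receptor order was different: Clec5a, at 47.1 per kb, was beside Lair1 at 48.8, whereas in each WT library Clec5a was above Lair1 (497 to 696 against 152 to 193). The level of Clec5a relative to its adaptor gene Tyrobp was 13.7%, 10.4% and 11.9% in WT and 4.93% and 2.26% in KO. Fcgr3 relative to Fcer1g was 35.5%, 53.0% and 46.9% in WT and 34.2% and 23.5% in KO, so that KO 2 was close to the lowest WT library. Tyrobp relative to Fcer1g was 120% to 142% in WT, 120% in KO 2 and 105% in KO 3.

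**Figure D3:**
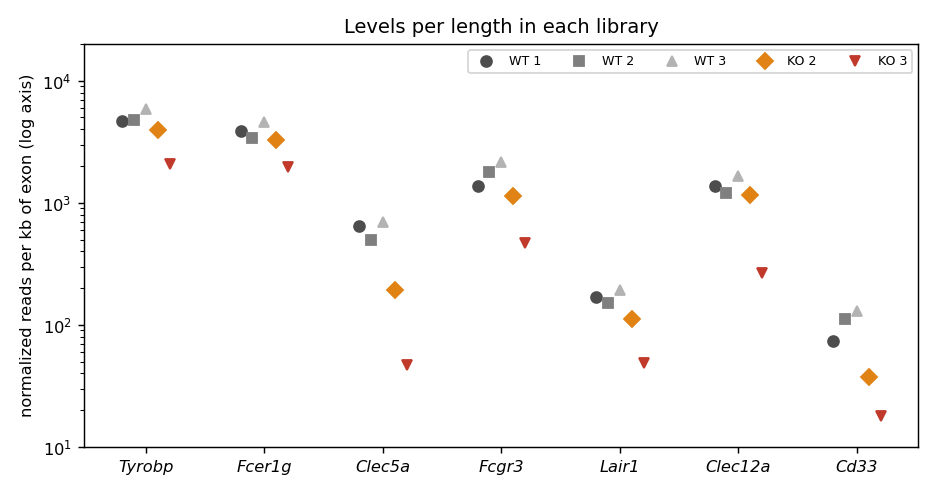
Normalized reads per kb of annotated exon (log axis) for each gene and library. The adaptor genes Tyrobp and Fcer1g lie between 3374 and 5856 in WT, above all receptor genes, and Clec5a lies at 497 to 696 in WT and at 47.1 in KO 3, beside Lair1 at 48.8.

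Profiles were matched over the 5 libraries by the root mean square difference of log2 values centred on the WT mean, among 11436 genes with a mean of at least 50. The nearest profiles to Clec5a were Ppp1r42 (0.26), Cmah (0.28), Zfp51 (0.28), Slfn4 (0.32) and Lilrb4 (0.35). Lilrb4, an inhibitory receptor gene with a close paralog in Gp49a that could share its reads, had 1005, 1079 and 1201 normalized reads in WT and 379 and 137 in KO. The nearest to Lair1 was Cd48 (0.032), followed by Mkln1 (0.047), Nuf2 (0.055), Svip (0.061) and Glrx (0.063). Cd48 encodes the surface protein whose absence was part of the sort, and it had 696, 601 and 768 normalized reads in WT and 459 and 191 in KO. The distance between Lair1 and Fcgr3 was 0.18 and that between Lair1 and Clec5a 0.96, so the members did not share 1 profile.

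The rest of the pathway was taken as 6 lists, with 124 genes tested. Limma called 0 of the 124 at an adjusted p under 0.05 and edgeR called 0, whereas DESeq2 on the recovered reads called 25 lower and 6 higher. An unadjusted limma p under 0.05 was found for 42 of the 124, beside 3799 of the 13661 genes tested. Over all genes with a DESeq2 adjusted p, 9.58% were lower and 9.34% higher. Both KO values were below all WT values in 41 of the 124 (33.1%) and above them in 10 (8.06%), beside 23.2% and 23.9% of all genes tested. The lists of receptors and the lists of intracellular molecules had different shares, a difference that was not tested.

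Of the activating receptors, 15 of 27 had both KO values below all WT values and 0 above, with a median log2 fold change of -1.32. DESeq2 called 8 lower and 0 higher among 19 with an adjusted p. Itgam, the alpha chain of the complement receptor Mac-1, had 7074, 10792 and 11353 normalized reads in WT and 5158 and 2313 in KO, a log2 fold change of -1.46 (DESeq2 adjusted p = 0.00275). Its partner chain Itgb2 had 7990, 10546 and 11139 in WT and 8067 and 4687 in KO, so that KO 2 was inside the WT range. Trem1, a DAP12-coupled amplifier of inflammatory signals, had 486, 616 and 609 in WT and 296 and 83.5 in KO (log2 fold change -1.84, DESeq2 adjusted p = 0.0132). Trem3, of the same family, had 2478 in KO 2 and 679 in KO 3, both below its lowest WT value of 2853. Its log2 fold change of -1.32 rested mainly on KO 3, at -2.25 against the WT mean, with KO 2 at -0.38. The lowest value of the list was -2.57 for Sirpb1b and the highest 0.93 for Trem2, both at 51.4 normalized reads or fewer in every library.

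Of the inhibitory receptors, 14 of 25 had both KO values below all WT values and 0 above, the median log2 fold change was -1.03, and DESeq2 called 11 lower and 0 higher among 21. Ceacam1, an adhesion receptor with inhibitory motifs, had 3037, 3724 and 4189 normalized reads in WT and 2045 and 650 in KO (log2 fold change -1.65, DESeq2 adjusted p = 0.00778). Clec4a2, an inhibitory lectin receptor, had 1824, 1311 and 1875 in WT and 1115 and 191 in KO. Its log2 fold change of -1.83 (DESeq2 adjusted p = 0.262) rested mainly on KO 3, at -3.10 against the WT mean, with KO 2 at -0.56, and it was -0.88 with the length and GC trend removed. Btla, best known from lymphocytes, had a WT mean of 47.5 and values of 5.14 and 10.6 in KO, a log2 fold change of -2.49. Sirpa, the receptor for CD47, had 2874, 4512 and 4278 in WT and 3857 and 2261 in KO. The gene of the checkpoint receptor VISTA, listed as 4632428N05Rik, had 4194, 6126 and 5742 in WT and 4559 and 3138 in KO. In both, KO 2 was within the WT range. Cd5, at 15.4 normalized reads or fewer, had the highest fold change of the list at 0.84.

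Of the proximal signaling genes, which carry the receptor signal inward, 8 of 33 had both KO values below all WT values and 2 above, and the median log2 fold change was -0.16. Rac2 (-0.27), Plcg2 (-0.18), Vav1 (-0.09) and Prkcd (-0.16), the most abundant of them in WT, all had at least 1 KO value inside the WT range. With the length and GC trend removed they were at -0.48, -0.53, -0.39 and -0.32, in the same order, and the median of the list was -0.26. The extremes were Malt1 (-0.89) and Yes1 (1.31), and neither kept its direction under every alternative. Malt1 was at 0.10 with the length and GC trend removed. Yes1 was at 0 in WT 3, its KO mean of 41.5 was below its WT mean of 47.1, and its log2 fold change was -0.21 by edgeR and -0.18 by DESeq2. DESeq2 called 2 lower and 1 higher. The next 2 kinases were picked after their values were seen. Syk, which both adaptors recruit, had 3322, 4321 and 3849 normalized reads in WT and 3624 and 3088 in KO. Lyn had 2030, 2617 and 2513 in WT and 1339 and 1244 in KO (DESeq2 adjusted p = 0.00121). Syk thus overlapped between the groups in KO 2, while Lyn, a Src-family kinase that phosphorylates both kinds of motif, did not overlap.

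Of the phosphatases and brakes, 3 of 17 were below WT in both KO libraries and 3 above, with a median log2 fold change of -0.01. Ptpn6, the gene of SHP-1 that inhibitory receptors recruit, had 7988, 10063 and 9360 normalized reads in WT and 8970 and 9124 in KO. Inpp5d (SHIP-1) was at -0.08 and Dok3 at 0.11, both with overlapping values, while with the length and GC trend removed Ptpn6 was at -0.36, Inpp5d at -0.36 and Dok3 at -0.55, and the median of the list was -0.22. Ptprc, the gene of CD45, a phosphatase that activates Src-family kinases and the surface marker of donor origin in the sort, had 4635, 3735 and 4550 in WT and 2010 and 1271 in KO (log2 fold change -1.42, DESeq2 adjusted p = 1.89e-05, limma adjusted p = 0.0815). It was at -0.69 with the same trend removed. Inppl1 was at the other end with 1.51, from 107 to 116 in WT to 150 in KO 2 and 683 in KO 3. With the same trend removed, Inppl1 was at 0.98.

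**Figure D4:**
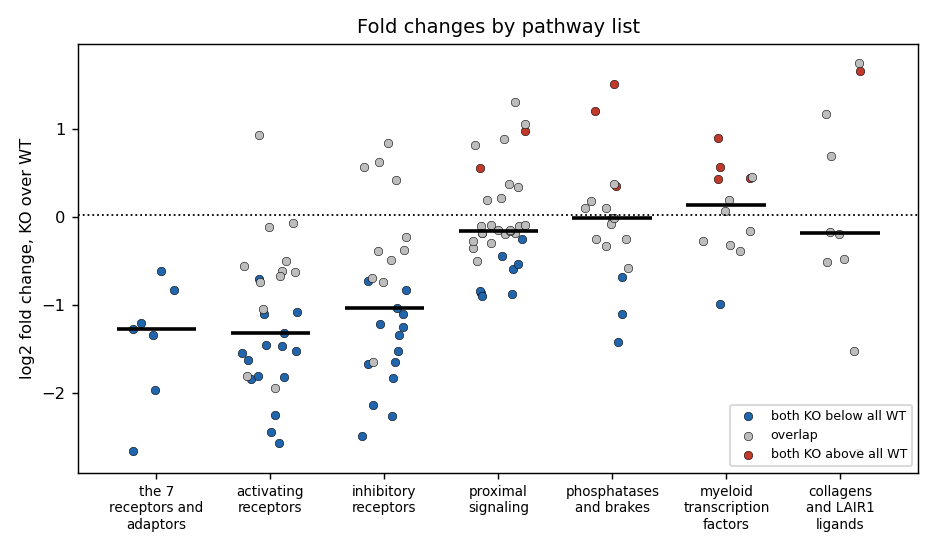
Log2 fold change, KO over WT, of each tested gene by list, with black lines at the list medians and a dotted line at the median of all genes (0.02). Medians are -1.32 for activating and -1.03 for inhibitory receptors, and -0.16, -0.01, 0.14 and -0.18 for proximal signaling, phosphatases and brakes, myeloid transcription factors, and collagens and LAIR1 ligands.

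The myeloid transcription factors, which activate many of these receptor genes, had more genes above WT than below: 1 of 12 had both KO values below WT and 4 above, with a median log2 fold change of 0.14 that turned to -0.33 when the length and GC trend was removed. Spi1, the gene of PU.1, had 6011, 7612 and 6966 normalized reads in WT and 8541 and 10184 in KO, a log2 difference of 0.45 (limma adjusted p = 0.155). Cebpb had 1874, 3239 and 2204 in WT and 4576 and 4316 in KO, a log2 fold change of 0.90 (DESeq2 adjusted p = 0.0148). Cebpd (0.43) and, picked after its values were seen, Cebpa (0.57) also had both KO values above WT, whereas Cebpe (0.08) overlapped. With the length and GC trend removed, Spi1 turned to -0.19, Cebpb to -0.32, Cebpa to -0.34 and Cebpe to -0.73, and Cebpd was at 0.30. Ets1 was the 1 factor below, with a log2 fold change of -0.99 (DESeq2 adjusted p = 0.00720).

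Genes for ligands of LAIR1, collagens and complement C1q, were low or variable. Of 10 tested, 0 had both KO values below WT and 1 above, Col4a2, with 852, 614 and 298 normalized reads in WT and 873 and 3352 in KO (log2 fold change 1.67). Col4a1 followed it at 1.18, with 745 in KO 2, inside the WT range, and 2608 in KO 3. With the length and GC trend removed, Col4a2 was at 0.87 and Col4a1 at 0.59, and the median of the list moved from -0.18 to -0.75. Col5a1 (-0.19) and C1qb (-0.48) overlapped between the groups, and C1qb was at 0.61 in KO 2 and -1.56 in KO 3 against the WT mean. With the same trend removed, Col5a1 was at -0.82. Col1a2 (-2.68) and Col3a1 (1.75) had the extreme fold changes. Col1a2 had 84.9, 442 and 61.7 in WT and 4.11 and 83.5 in KO, so that KO 2 was -4.71 and KO 3 -0.66 from the WT mean on the log2 scale. Col3a1 had 133 in KO 2 against 10.4 or fewer elsewhere.

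Markers of more mature myeloid cells were lower in the same libraries as the members. The summed level of the 7 members, relative to the WT mean, was 70.9% in KO 2 and 27.4% in KO 3. The 9 mature neutrophil markers summed to 66.0% and 25.7%, and the 10 monocyte and macrophage markers to 66.1% and 27.5%. Most of the monocyte sum was Lyz2, which neutrophils also express, with 58506 of 60706 normalized reads in KO 2. By the median marker, the difference from the WT mean in KO 2 and KO 3 was -0.67 and -2.08 for neutrophil markers and -0.56 and -1.35 for monocyte markers, beside -0.61 and -1.91 for the members. Csf1r, a defining monocyte gene, had its lower value in KO 2 (353) and not in KO 3 (454), unlike the members. In both lists 7 genes, of 9 and of 10, had both KO values below all WT values. Over all genes tested, 23.2% had both KO values below all WT values and 23.9% above. WT sums ran from 783371 to 983118 for neutrophil markers, with KO sums of 565958 and 219978, and from 74003 to 109433 for monocyte markers, with KO sums of 60706 and 25212. Earlier granule-stage markers, such as Mpo and Elane, summed to 109% in KO 2 and 68.0% in KO 3, and 0 of 5 had KO values beyond WT. Multipotent progenitor markers summed to 72.6% in KO 2 and 92.4% in KO 3. Of these 5 markers, 2 had both KO values below all WT values and 0 above, and DESeq2 called 2 lower and 0 higher. None of the neutrophil or monocyte markers was at 3 reads or fewer in every library. The HSC markers overlapped between the groups in 12 of 12. Their sum, of which Kit took 8007 of 15398 normalized reads in KO 2, was 87.0% of WT in KO 2 and 155% in KO 3. By the median marker, KO 2 was 0.14 and KO 3 1.14 above WT on the log2 scale. The median log2 fold change was 0.62, or 0.85 with the length and GC trend removed, and 1 of 12 was below 0. Of the 6 megakaryocyte and platelet markers, 4 had both KO values above all WT values and 0 below. Their median log2 fold change was 1.27, or 0.57 with the length and GC trend removed, and DESeq2 called 4 higher. The part of these other cells in the lower values of the members was not tested.

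**Figure D5:**
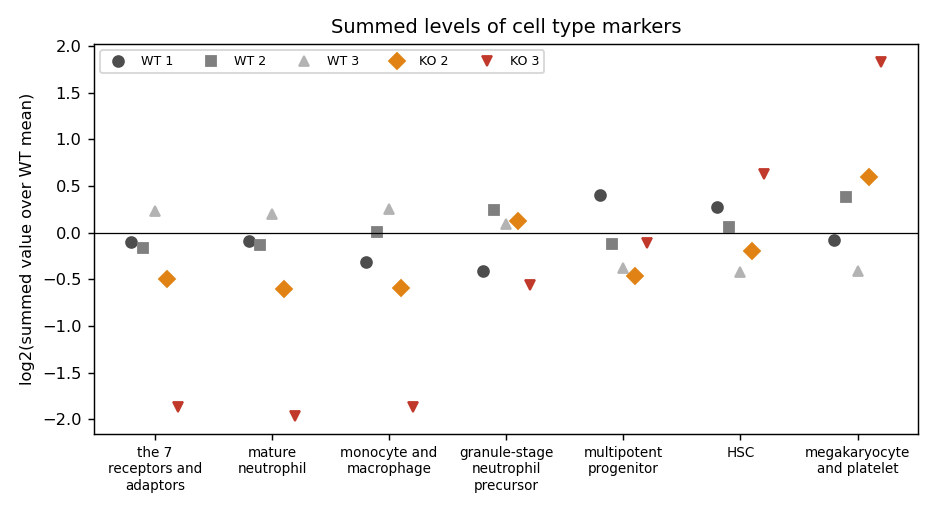
Log2 of the summed normalized reads of each list in each library over the WT mean. The 7 receptors and adaptors (-0.50 in KO 2 and -1.87 in KO 3) lie beside the mature neutrophil (-0.60 and -1.96) and monocyte and macrophage markers (-0.60 and -1.86), while the HSC markers are at -0.20 and 0.63 and the megakaryocyte and platelet markers at 0.60 and 1.83.

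Other cells that use Tyrobp, Fcer1g and Fcgr3 include NK cells, mast cells and dendritic cells. Of 4 NK markers tested, 0 were below WT in both KO libraries and 1 was above, and all 4 had fold changes above 0, with a median of 1.13. The median NK marker was in KO 2 0.24 and in KO 3 2.50 above the WT mean on the log2 scale, and DESeq2 called 2, Gzma and Prf1, higher. The NK sum, at 147% of WT in KO 2 and 86.8% in KO 3, was nearly all Nkg7, with 9010 of 9063 normalized reads in KO 2. Of 6 mast cell and basophil markers, 3 were below and 0 above, beside 23.2% and 23.9% of all genes tested. DESeq2 called 3 of the 6 lower and 0 higher, and their median log2 fold change was -0.73. Their sum was 3737 normalized reads for KO 2 (55.9% of WT) and 5601 for KO 3 (83.8%), against 5547 to 7631 in WT. The KO 3 sum was thus inside the WT range, whereas the members were lowest in KO 3. Of 7 dendritic cell markers, 0 were below and 1 above, and Siglech was at 3 reads or fewer in every library, as was Tpsb2 of the mast cell list. Of the pathway genes, 5 also stood on a marker list, and 0 of the 7 members did.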

How the data were processed

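Mouse HSCs were sorted into TRIzol, and SMART-Seq v4 libraries were made from phenol-chloroform extracts. Per the submitters' processing notes, STAR, featureCounts, DESeq2 and mm10 were used. Their versions, the annotation and the use of strand were not given in the sources used here. The authors deposited a normalized signal, read counts divided by a size factor per library, and a table of their own fold changes and p-values, which was not used. In each library 100% of positive values came out as whole reads (within 0.01), which gave the depths. Reads have no molecular identifiers, so depth and the floor of 3 reads cover counting error only.

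WT and KO were compared with limma (version 3.58.1, with a mean-variance trend; R 4.3.3) on log2(value + 1) over 13661 genes that reached a value of 10 in 2 or more libraries. This scale understates changes of low genes. The limits for a call were 0.05 for the Benjamini-Hochberg adjusted p and 1 for the size of the log2 fold change, and list genes had only the first. edgeR (4.0.16) and DESeq2 (1.42.0) were run on the recovered reads. Only these and the main kind of limma fit were checked on simulated data. There all genes and libraries had the same dispersion, so the check does not say which caller suits these data. Other alternatives changed the pseudocount, filter, scaling, variance trend, length and GC correction and replicate block, or left out 1 library. The members and lists were chosen with earlier results of these data known.

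Named genes were the 7 members, Syncrip, the 5 nearest profiles to Clec5a and to Lair1 and, per pathway list, the 4 highest in WT, both extremes of fold change and every gene called by limma (none was). Fcgr2b and the marker genes given by name were added after their values were seen, and most genes that DESeq2 alone called are given only as counts. Gene models were from GENCODE M21 and promoters from RefSeq, both GRCm38. Library pairs sharing a number had correlations of -0.06 (WT 2 and KO 2) and -0.18 (WT 3 and KO 3) in their deviations from group means, and nothing showed the numbers to pair samples. A gene of the proximal signaling list is counted but not reported here by name.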

Additional observations from a re-analysis of the deposited data

How the results depend on the processing

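All 7 members had log2 fold changes below 0 under each of 16 alternatives. Their median of -1.27 stayed between -1.36 and -1.09 with all libraries in, and ran from -1.91 (without KO 2) to -0.61 (without KO 3) with 1 library left out. The count of members with both KO values below WT was 6 with the length and GC trend removed, and 7 with other scaling or a WT library left out. With 1 KO library left out, the remaining KO value was below WT for all 7. Pseudocount and filter cannot change this count, and it was not taken for edgeR, DESeq2, the replicate block or the fit without the variance trend. Counts of called genes were unstable. Against 1 gene, limma gave 2 with a pseudocount of 10, 0 with no filter (3963 at an unadjusted p under 0.05), 8 without the variance trend and 0 after the correction for GC content and length (2253 unadjusted), edgeR gave 2 (3715 unadjusted), and DESeq2 gave 1051. Leaving out 1 library gave 0 to 2182, namely 2182 without KO 2, 4 without KO 3 and 0 without any 1 of WT 1, WT 2 and WT 3 (2169 to 3055 unadjusted). For the pathway lists, DESeq2 called 31 genes against 0, and leaving out 1 library gave 0 to 43, the 43 without KO 2. A lone KO library was assumed to vary like WT. The cause was not tested.

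With the replicate number as a block, limma called 6 genes and the median of the members was -1.36. The samples share only a number.

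With 3 and 2 libraries a group, the SE of a member's log2 fold change was 0.25 to 0.51, and both KO libraries were also the shallowest.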
